A study of Homo sapiens with 16 samples.

Results

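The comparison described here is that of senescent fibroblasts treated with siRNA against p65 (sip65, 2 libraries) with senescent fibroblasts treated with a control siRNA (Sen, 2 libraries). These are 4 of the 16 ATAC-seq peak lists analysed, all single-end. Their peaks on chromosomes 1 to 22 were merged wherever they overlapped by at least 1 bp, which gave 79667 regions, against 160932 when all 16 lists were merged. ATAC-seq uses a transposase that inserts sequencing adapters into open DNA, so a peak marks an accessible stretch of chromatin.

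p65, the product of RELA, is the main activating subunit of NF-kB. NF-kB dimers are held in the cytoplasm by IkB inhibitors, enter the nucleus when the IkB kinases are activated, and bind kB sites at the promoters and enhancers of inflammatory genes. In senescent fibroblasts NF-kB drives much of the senescence-associated secretory phenotype, the release of interleukins, chemokines and proteases. p300 and CBP are acetyltransferases recruited by p65 and by many other factors. AP-1 dimers of JUN and FOS proteins and the forkhead factors FOXF1 and FOXF2 also bind fibroblast enhancers.

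All 4 libraries came from IMR-90 ER:Ras cells, an established human lung fibroblast line carrying an oncogenic Ras fused to an oestrogen receptor, exposed to 100 nM 4-hydroxytamoxifen for 6 days to bring on senescence. They differed in the transfected siRNA, siCtrl in Sen and sip65 in the knockdown. Another 2 single-end libraries of the same senescent cells received sip300/CBP. The 10 paired-end libraries share no library with the single-end ones and served as an independent readout of each region. They were 4 of Sen (siCtrl with 4-hydroxytamoxifen), 2 of cells titled Pro (siCtrl and no 4-hydroxytamoxifen, although their cell type label reads senescent fibroblast), 2 of senescent cells with siFOXF1/2, and 2 of senescent cells with knockdown of JUN-family members, titled cJUN/JUND with a treatment label that also names JUNB. Peak lists do not show whether p65 itself was depleted, and the fibroblast identity of the cells was not checked against marker genes. No label says that replicates were separate cultures, so p-values measure the spread between these libraries, which may be technical.

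The sip65 lists were shorter than the Sen lists. Sen replicates 1 and 2 held 53719 and 66524 peaks (mean 60122 ± 9055, SD, n = 2) and sip65 replicates 1 and 2 held 43377 and 17707 (mean 30542 ± 18151, SD, n = 2), a ratio of means of 0.508. Both sip65 lists were shorter than both Sen lists, but the second was far shorter than the first, at 0.295 and 0.721 times the Sen mean. The two-sided exact permutation test gave p = 0.333, the smallest value that 2 libraries against 2 allow. The sip300/CBP lists held 69760 and 45808 peaks and overlapped the Sen range.

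Depth also differed between the libraries. Genome-wide background coverage, recovered from the deposited fold and p-values, was 0.231 and 0.475 in Sen, 0.314 and 0.195 in sip65, and 0.264 and 0.294 in sip300/CBP. Neither Sen list was as shallow as sip65 replicate 2, while sip65 replicate 1 lay between the 2 Sen libraries. The median pileup of reads at a peak summit was 13 and 17 in Sen against 14 and 12 in sip65, and the median peak width was 150 and 160 bp against 159 and 145 bp. The shorter list was close to a subset of the longer one: of the 17559 regions of sip65 replicate 2, 92.1% were in sip65 replicate 1, 95.9% in Sen replicate 2 and 89.7% in Sen replicate 1.

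To set the lists on the same footing, each of the 6 single-end lists was reduced to its 17707 strongest peaks, the length of the shortest, and the share of the regions of all 4 paired-end Sen lists that it still held was counted. Over the 74746 such regions the Sen and sip65 lists were alike, holding 21.5% and 21.7% in Sen and 22.3% in each sip65 library. The sip300/CBP lists held less, at 19.2% and 19.6%. Sen and sip65 differed by the kind of region. Regions of all 4 paired-end Sen lists are called JUN-lost or FOXF-lost where both lists of that knockdown lack a peak, and JUN-held or FOXF-held where both have one, which describes the lists and not binding. Of the 23622 JUN-lost regions, Sen libraries held 8.37% and 9.01% (mean 8.69% ± 0.449, SD, n = 2) and sip65 libraries 4.75% and 4.31% (4.53% ± 0.305, SD, n = 2), a ratio of 0.521. Of the 42961 JUN-held regions, Sen held 30.7% and 30.6% and sip65 34.2% and 34.9%. So JUN-lost regions took a smaller place among the strongest peaks after sip65, in both libraries and by more than the spread between replicates.

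Regions that open with senescence behaved alike. Senescence-opened regions, present in all 4 paired-end Sen lists and neither Pro list, numbered 19521. At equal list length Sen held 10.3% and 11.2% of them (mean 10.7% ± 0.685, SD, n = 2) and sip65 held 6.87% and 6.77% (6.82% ± 0.0761, SD, n = 2), a ratio of 0.635. Of the 48397 regions shared with Pro, Sen held 27.4% and 27.2% and sip65 30.2% and 30.5%. Since every list has the same length here, a smaller share in one class goes with a larger share in others.

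FOXF-lost regions went the other way in lists of equal length. Of the 6048 FOXF-lost regions, Sen held 3.06% and 4.08% at equal list length (mean 3.57% ± 0.725, SD, n = 2) and sip65 held 5.46% and 6.08% (5.77% ± 0.444, SD, n = 2), a ratio of 1.62. The sip300/CBP libraries, set beside them, held 1.60% and 1.55%. At equal length the ranges of the 3 groups did not overlap, with sip65 highest and sip300/CBP lowest. In the full lists Sen held 16.9% and 29.5% of FOXF-lost regions, sip65 21.3% and 6.08%, and sip300/CBP 8.47% and 5.18%. There Sen and sip65 overlapped. Within 10 bins of paired-end Sen strength the ratio of FOXF-lost to FOXF-held shares in the full lists gave no single picture. In the strongest bin it overlapped, at 0.642 and 0.758 in Sen and 0.818 and 0.630 in sip65. In bin 5, counted from the weakest, it was 0.313 and 0.459 in Sen and 0.572 and 0.473 in sip65. Both sip65 ratios lay above both Sen ratios in bins 1, 3 and 5, and the 2 groups overlapped in the other bins. For JUN-lost regions at equal length the sip300/CBP values of 6.22% and 6.48% lay between Sen and sip65. For senescence-opened regions they were 7.76% and 8.12%, also between. Both knockdowns share the Sen controls. With 2 libraries a group the smallest possible exact p is 0.333 for any of these shares, so none carries a test that can pass 0.05.

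Regions gained in the siFOXF1/2 lists were nearly missing from the sip65 lists. These 8624 regions were in both siFOXF1/2 lists and in no paired-end Sen list. At equal length Sen held 1.40% and 0.893% of them, sip65 0.255% and 0.197%, and sip300/CBP 3.66% and 3.27%. Full lists gave 7.99% and 8.07% in Sen, 1.53% and 0.197% in sip65, and 18.1% and 10.1% in sip300/CBP. The sip65 values were below both Sen values and the sip300/CBP values above them in each case. All peaks outside every paired-end Sen list came in the same order, at 6.66% and 5.57% of peaks in Sen, 2.04% and 0.525% in sip65, and 17.8% and 11.8% in sip300/CBP. Of the 3002 regions gained in both JUN-family knockdown lists, Sen held 0.400% and 0.433% at equal length, sip65 0.566% and 0.400%, and sip300/CBP 2.86% and 1.97%.

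**Figure D1:**
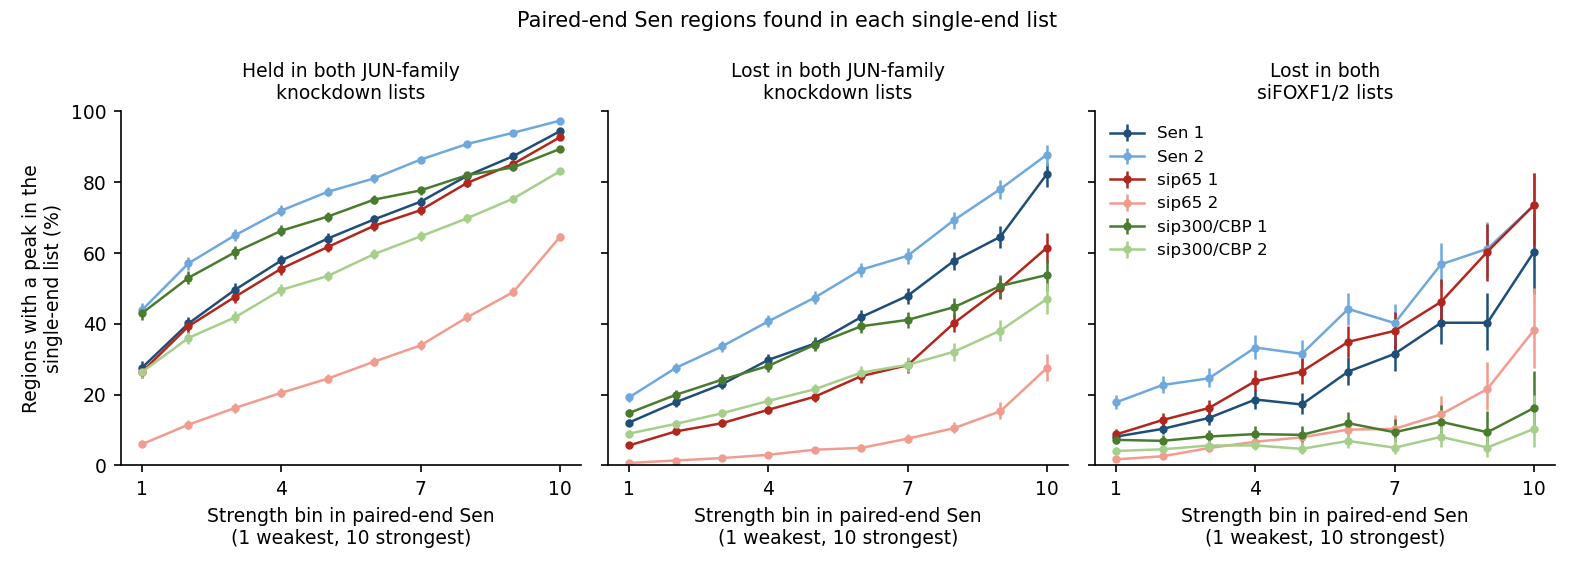
Share of the regions present in all 4 paired-end Sen lists that had a peak in each full single-end list (y axis, percent), by 10 bins of strength in the paired-end Sen lists (x axis), for regions held in both JUN-family knockdown lists, lost in both, or lost in both siFOXF1/2 lists. Bars are 95% Wilson intervals over regions. In the middle panel both sip65 lines lie below both Sen lines in the strongest bin (61.5% and 27.5% against 82.3% and 87.8%). In the right panel sip65 1 lies with Sen, while sip65 2 and both sip300/CBP lines lie lower. Over all bins of that panel sip65 2 held 6.08% of regions and sip300/CBP 8.47% and 5.18%.

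The JUN-family knockdown and Pro lists were themselves short, with 58955 to 64904 peaks against 96512 to 100656 in paired-end Sen, so both classes also hold weaker regions and were compared at matched strength. The plot of detection by strength gives the full lists within bins of strength. In the strongest bin of paired-end Sen, the 6570 JUN-held regions were held at 94.4% and 97.4% in Sen, 92.7% in sip65 replicate 1 and 64.5% in sip65 replicate 2. The 491 JUN-lost regions of that bin were held at 82.3% and 87.8% in Sen but 61.5% and 27.5% after sip65. Dividing the second share by the first gives 0.872 and 0.901 in Sen against 0.664 and 0.426 in sip65. The sip300/CBP libraries, at 0.601 and 0.566, lay within the sip65 range in that bin, so there the lower ratio is found after both knockdowns. In the fifth bin the ratios were 0.536 and 0.613 in Sen, 0.315 and 0.181 in sip65, and 0.485 and 0.401 in sip300/CBP. For senescence-opened over shared regions the strongest bin gave 0.914 and 0.916 in Sen and 0.755 and 0.547 in sip65. There sip300/CBP, at 0.646 and 0.596, again lay within the sip65 range. In the fifth bin these ratios were 0.675 and 0.736 in Sen, 0.447 and 0.321 in sip65, and 0.542 and 0.506 in sip300/CBP. sip65 replicate 1 and sip300/CBP replicate 2 were alike in list length and background coverage, and allow the knockdowns to be read at like depth. Over all bins they held 18.4% and 19.2% of JUN-lost regions and 68.7% and 61.2% of JUN-held ones. They held 21.3% and 5.18% of FOXF-lost regions.

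By presence in the full lists, 13216 of the 44814 regions with a peak in both Sen lists had none in either sip65 list and are called closed, 29.5% (95% Wilson interval 29.1 to 29.9, over regions only). A further 14895 regions, 33.2%, had a peak in all 4 lists and are called kept. The remaining regions were mostly lost from the shorter list alone: 16013 (35.7%) were absent only from sip65 replicate 2 and 690 (1.54%) only from replicate 1. Singly, replicate 1 lacked 31.0% of the Sen regions and replicate 2 lacked 65.2%. The reverse call was rare in the full lists, with 250 opened regions, 1.55% of the 16178 regions in both sip65 lists. When the 4 lists were brought to equal length, closed and opened regions came to 2153 and 1876. Lists of equal length hold losses and gains close to balance by construction, so neither pair of counts measures an excess of closing over opening apart from list length. Closed regions came to 28441 without Sen replicate 1, 20451 without Sen replicate 2 and 29272 without sip65 replicate 1. Opened regions came to 1174 without Sen replicate 2, 564 without sip65 replicate 1 and 4890 without sip65 replicate 2, and kept regions to 30902 without sip65 replicate 2.

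**Figure D2:**
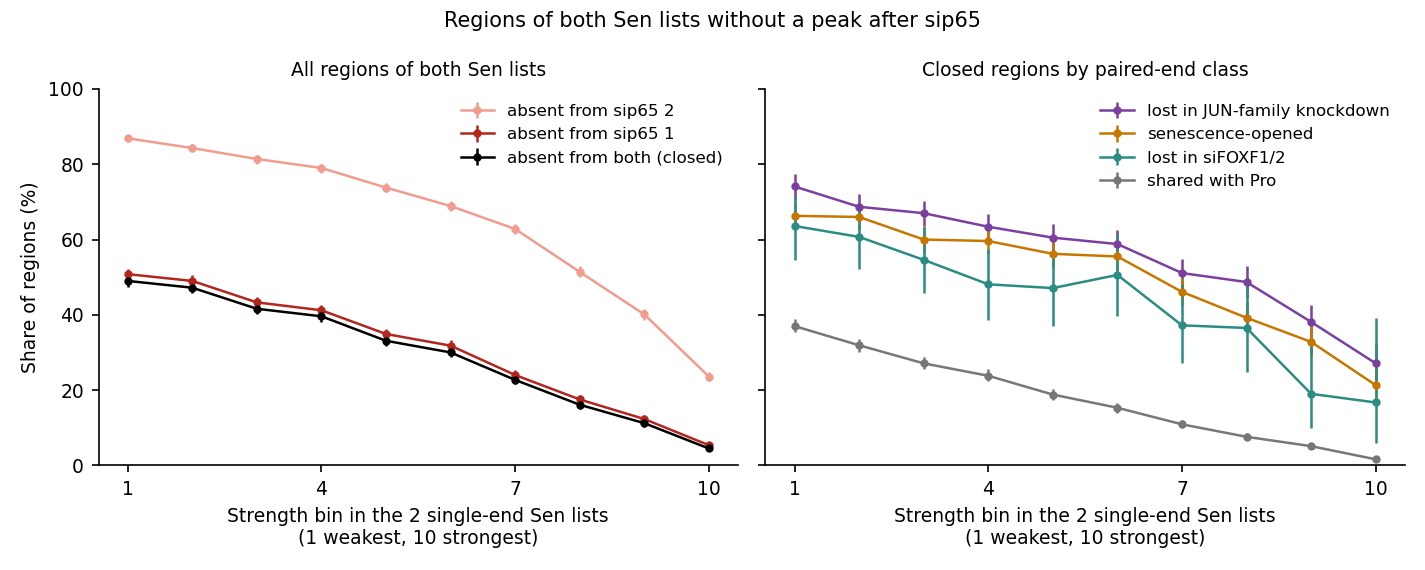
Share of regions of both single-end Sen lists that lacked a peak after sip65 (y axis, percent), by 10 bins of strength in the Sen lists (x axis), for all regions and each sip65 replicate (left) and by class in the paired-end lists (right). Bars are 95% Wilson intervals over regions. Closed regions made up 49.0% of the weakest and 4.48% of the strongest bin, and in every bin the classes lost in JUN-family knockdown and opened in senescence lie above the regions shared with Pro.

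Weak regions were closed most often. The share fell from 49.0% in the weakest of 10 bins of Sen strength, taken as the lower within-list percentile of summit fold, to 4.48% (201 of 4482 regions) in the strongest. After sip300/CBP the share absent from both lists went from 31.1% to 2.25% over the same bins, with 17.4% (7795 regions) overall. Kept regions ran the other way, from 11.2% to 75.5%. Scaled to each sip65 library by its background coverage, a closed region at unchanged height would have had a median pileup of 12.8 reads in replicate 1 and 7.94 in replicate 2, where the smallest listed pileups were 6 and 5. In 2644 of the 13216 closed regions the scaled pileup reached the 25th percentile of listed pileups in both libraries, 11 and 10 reads. It exceeded the smallest listed pileup in both libraries in 12975 (98.2%).

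The share that closed differed between the paired-end classes. Of the 6242 senescence-opened regions in both Sen lists, 3293 closed, 52.8% (51.5 to 54.0), and of the 30915 shared with Pro, 5188 closed, 16.8% (16.4 to 17.2). Of the 6276 JUN-lost regions 3674 closed, 58.5% (57.3 to 59.8), against 15.1% (14.7 to 15.5) of the 30357 JUN-held ones. The contrast was present at matched strength: in the strongest bin 27.1% of 314 JUN-lost regions closed and 1.16% of the JUN-held ones, and 21.3% of 357 senescence-opened regions against 1.60% of those shared with Pro. The same shares after sip300/CBP, read against the same Sen lists, were 34.7% and 11.0% for the JUN classes and 33.7% and 11.6% for the senescence classes.

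FOXF-lost regions were closed at 49.5% (412 of 832, 46.1 to 52.9) after sip65 and at 64.5% after sip300/CBP, although sip300/CBP closed fewer regions in all. FOXF-held regions were closed at 22.7% and 14.0%. By this call FOXF-lost regions were thus closed more often than FOXF-held ones after both knockdowns. The call enters only regions with a peak in both Sen lists, and the full Sen lists held just 16.9% and 29.5% of FOXF-lost regions. Without that condition the full sip65 lists held 21.3% and 6.08% of them, which overlaps Sen. In the strongest bin only 18 FOXF-lost regions were left, closed at 16.7% and 27.8%, against 3.24% and 1.91% of FOXF-held ones.

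A small set of regions stood apart from the paired-end data. Both single-end Sen lists held 1458 regions that had no peak in any of the 4 paired-end Sen lists, and 1268 of these closed after sip65, 87.0% (85.1 to 88.6), against 28.5% after sip300/CBP. They were held by 67.3% and 50.1% in the sip300/CBP lists, 44.4% and 25.7% in the siFOXF1/2 lists, 12.3% and 2.13% in the sip65 lists, and at most 6.86% in the Pro and JUN-family knockdown lists. Among all peaks of a library, those outside every paired-end Sen list made up 6.66% and 5.57% in Sen, 2.04% and 0.525% in sip65, and 17.8% and 11.8% in sip300/CBP. The share thus varied between single-end groups at regions that the paired-end Sen lists did not hold, and its part in the closed calls was not tested. The 1268 regions made up 9.59% of closed regions. Regions present in all paired-end Sen lists closed at 23.8%, a class that leaves out this set and also regions held by only some of these lists.

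**Figure D3:**
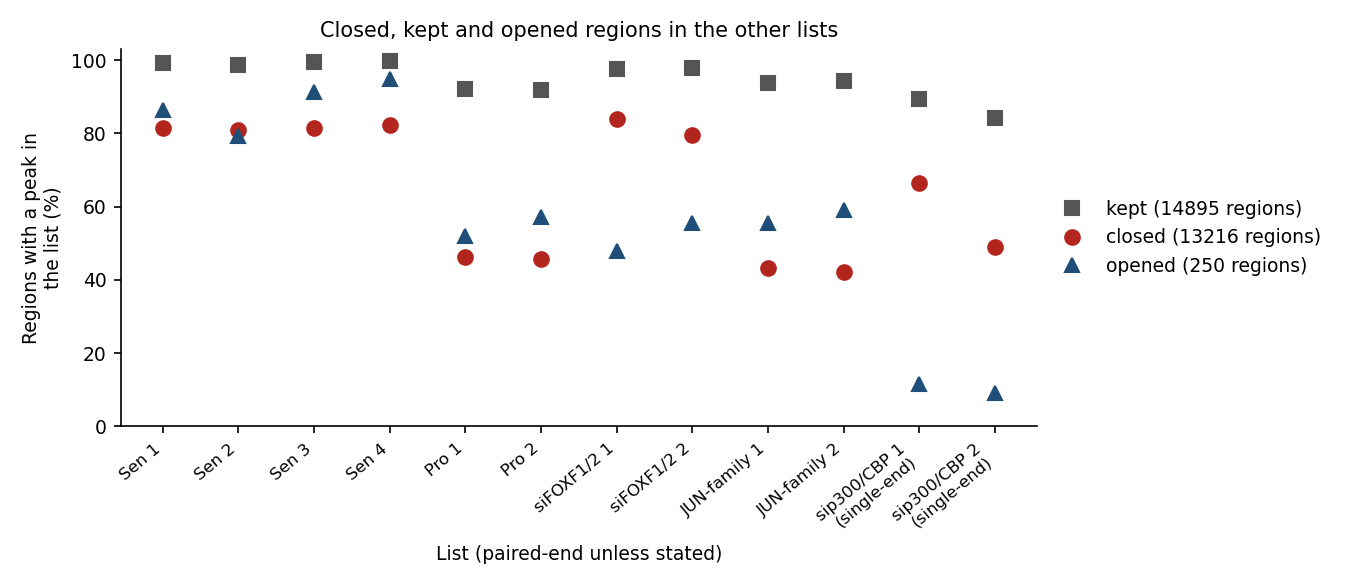
Share of the 13216 closed, 14895 kept and 250 opened regions that had a peak in each of the paired-end lists and in the 2 single-end sip300/CBP lists (y axis, percent; x axis, list). Opened regions were held by 79.2% to 94.8% in the paired-end Sen lists and by 11.6% and 9.20% in the sip300/CBP lists.

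The paired-end lists placed closed regions among the less widely shared ones. Closed regions were held at 80.9% to 82.4% in the 4 paired-end Sen lists, 46.3% and 45.6% in Pro, 43.2% and 42.2% in JUN-family knockdown, and 84.0% and 79.6% in siFOXF1/2. Kept regions were held at 98.6% to 99.8% in Sen, at 92.2% and 91.9% in Pro and at 93.9% and 94.2% in JUN-family knockdown. Closed regions were narrower, with a median width of 167 bp against 281 bp, and weaker, with median Sen percentiles of 39.9 and 44.8 against 75.1 and 80.2.

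Among closed regions the leading one, on chromosome 2 from 24476268 to 24476486 (hg19, as all positions here), had summit pileups of 20 and 29 reads in Sen, at the percentiles 99.0 and 99.8 of those lists. Neither sip65 list held it, where an unchanged height would have given 23.2 and 14.4 reads. The sip300/CBP lists held it at 26 and 22 reads, all 4 paired-end Sen lists and both siFOXF1/2 lists held it, and neither Pro nor JUN-family knockdown lists did. It is thus a senescence-opened and JUN-lost region. A region on chromosome 3 at 74363935 to 74364164 had the same presence pattern, with 18 and 26 reads in Sen, none listed after sip65, and 15 and 14 after sip300/CBP. So had another on chromosome 1 at 108650334 to 108650564, with 20 and 32 reads in Sen and 29 and 20 after sip300/CBP.

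Among the 8 strongest closed regions, 5 were in no Pro list and 5 in no JUN-family knockdown list, while 7 were in both siFOXF1/2 lists. Among all closed regions the Pro lists held 46.3% and 45.6% and the JUN-family knockdown lists 43.2% and 42.2%. All 8 were in sip300/CBP replicate 1 and 7 in replicate 2. That is near the share for all regions of such strength. In the strongest bin of Sen strength, sip300/CBP replicates 1 and 2 lacked only 3.06% and 4.95% of regions. Sen pileups ran from 18 to 23 in replicate 1 and from 21 to 32 in replicate 2, and the scaled heights from 19.2 to 24.2 and from 11.9 to 15.0 reads, all above the 25th percentile of listed pileups. These regions were picked for high Sen percentiles, and the scaled heights come from the same Sen pileups. Passing that percentile thus follows largely from the choice and is no support for a loss. The region on chromosome 22 at 39034314 to 39034492 had 23 and 24 reads in Sen and was listed in 1 sip300/CBP library, at 11 reads. The region of chromosome 15 from 43124862 to 43125099 and that of chromosome 13 from 41859036 to 41859320 were in both Pro and both JUN-family knockdown lists, so the strongest closed regions were not of a single class. The genes near these regions are not named, as no hg19 annotation was used here.

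Closed regions were spread over all autosomes, from 347 of 1579 Sen regions on chromosome 19 to 714 of 2147 (33.3%) on chromosome 8. Some lay close together. In the 100 kb window on chromosome 6 at 138000001 to 138100000 all 8 Sen regions closed after sip65, 4 of them senescence-opened, and 4 were absent from both sip300/CBP lists. The window on chromosome 5 at 156900001 to 157000000 closed 7 of 9 regions and kept 0, against 1 absent after sip300/CBP. On chromosome 16 at 30700001 to 30800000, 7 of 12 closed, and on chromosome 6 at 155700001 to 155800000, 6 of 6. These windows were picked for their number of closed regions and carry no test.

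Most opened regions had a peak in the paired-end Sen lists. Of the 250, 191 (76.4%) were in all 4 paired-end Sen lists and 8 (3.20%) in none. In the single-end lists they were weak, with median pileups of 12 and 9 reads. FOXF-lost regions made up 60 of them (24.0%), against 3.12% of closed and 0.900% of kept regions. Among the 74746 regions of all 4 paired-end Sen lists, 6048 were FOXF-lost. By definition opened regions have no peak in either single-end Sen list, while closed and kept regions have one in both. The full single-end Sen lists held only 16.9% and 29.5% of FOXF-lost regions, so part of this contrast is set by the definition. In the other classes opened regions lay near closed ones: 61 (24.4%) were senescence-opened, against 24.9% of closed regions, 107 (42.8%) were shared with Pro, against 39.3%, and 55 were JUN-lost, where the closed share was 27.8%. Only 11.6% and 9.20% were in the sip300/CBP lists, where closed regions were held at 66.5% and 49.1%. The same difference in definition enters these shares.

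The leading opened region, on chromosome 13 at 87638805 to 87639079, had 13 and 11 reads after sip65 and no listed peak in either single-end Sen list. It was in all 4 paired-end Sen lists, in 1 siFOXF1/2 list and in neither Pro list. A region on chromosome 9 at 6429305 to 6429474 had 15 reads in each sip65 library and was in no siFOXF1/2 or JUN-family knockdown list. One on chromosome 1 at 187365460 to 187365671 had 12 and 10 reads and was in no siFOXF1/2 list but in both Pro and both JUN-family knockdown lists. Of the 8 leading opened regions 7 were in all 4 paired-end Sen lists, 3 were in no siFOXF1/2 list, and none had a peak in either sip300/CBP list.

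Kept regions allow ranks to be compared, since every list then orders the same 14895 regions. The 4 strongest, chosen for their place at the top of all 4 lists, stood at percentile 100.0 in each, so their ranks cannot show a change. The region on chromosome 17 at 22020650 to 22020801 had pileups of 71 and 77 reads in Sen and 71 and 60 after sip65, and one on chromosome 11 at 85194992 to 85195269 had 85 and 98 against 77 and 61. The other two had 81 and 90 against 84 and 65 on chromosome 6, and 83 and 98 against 74 and 55 on chromosome 2, and were in 0 and 1 of the 4 paired-end Sen lists. No filter for artefact-prone sites was applied here, so a high pileup need not mark open chromatin. Pileups are not scaled for depth. Ranks agreed better between the Sen libraries (correlation of normal scores across regions 0.63) than between the sip65 libraries (0.42), and regions are not independent replicates.

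On these ranks limma called 1 region that fell (0.00671% of those tested) and 0 that rose (0%) at an adjusted p under 0.05. At an unadjusted p under 0.05 limma gave 652 lower regions (4.38%) and 506 higher ones (3.40%). Both sip65 ranks lay below both Sen ranks in 2680 regions (18.0%) and above them in 2869 (19.3%). Without sip65 replicate 1 limma called 208 lower and 91 higher, without sip65 replicate 2 it called 12 and 5, and 0 fell without either Sen replicate. Rank changes at single kept regions were therefore near the size of the spread between libraries.

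**Figure D4:**
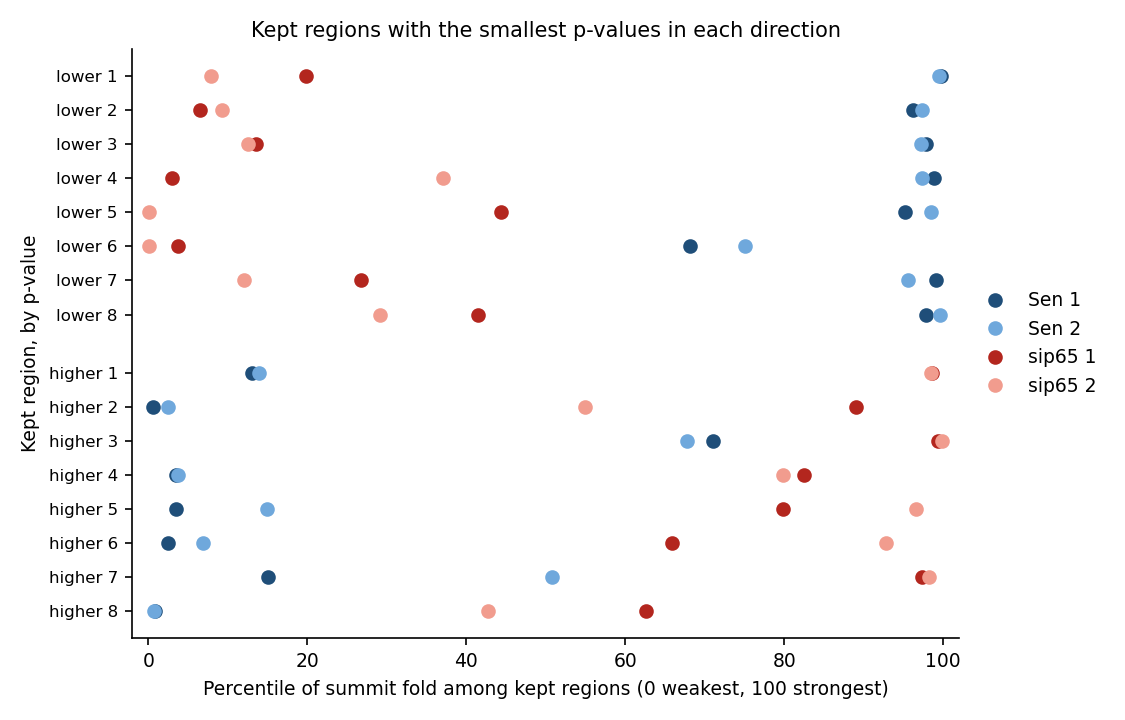
Percentile of summit fold among the 14895 kept regions (x axis) in each Sen and sip65 library for the 8 regions with the smallest p-values in each direction (y axis, ordered by p-value). Only regions with both sip65 points on the same side of both Sen points could be picked. Of those shown 1 region, the first of those lower after sip65, passed the adjusted threshold.

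The region that fell lay on chromosome 14 at 77952727 to 77952971. Its percentiles were 99.7 and 99.5 in Sen and 19.9 and 7.84 after sip65, with pileups of 29 and 40 against 11 and 8 reads. The change in normal score was -3.79 (SE 0.64, limma, adjusted p = 0.0466). It is shared with Pro. The adjusted p ranged from 3.55e-06 to 0.790 over the alternatives: it was 0.790 without Sen replicate 1, 0.493 without Sen replicate 2, 0.0605 with the mean over a region's peaks and 0.0765 without the variance trend.

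The other 7 regions lower after sip65 and the 8 higher ones did not pass, with adjusted p (limma) from 0.180 to 0.254 and from 0.180 to 0.353. On chromosome 6 at 110064996 to 110065212 the percentiles were 96.2 and 97.4 in Sen and 6.49 and 9.33 in sip65. On chromosome 3 at 183642889 to 183643125 they were 97.8 and 97.2 against 13.6 and 12.5. In the other direction, a region on chromosome 8 at 23405222 to 23405612 stood at 13.1 and 13.9 in Sen and 98.6 and 98.5 in sip65, with pileups of 19 and 29 against 33 and 22 reads. All 8 higher regions were shared with Pro, as were 7 of the 8 lower ones, and 2 of the lower ones were JUN-lost. Among all kept regions 90.0% were shared with Pro and 3.71% were JUN-lost.

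**Figure D5:**
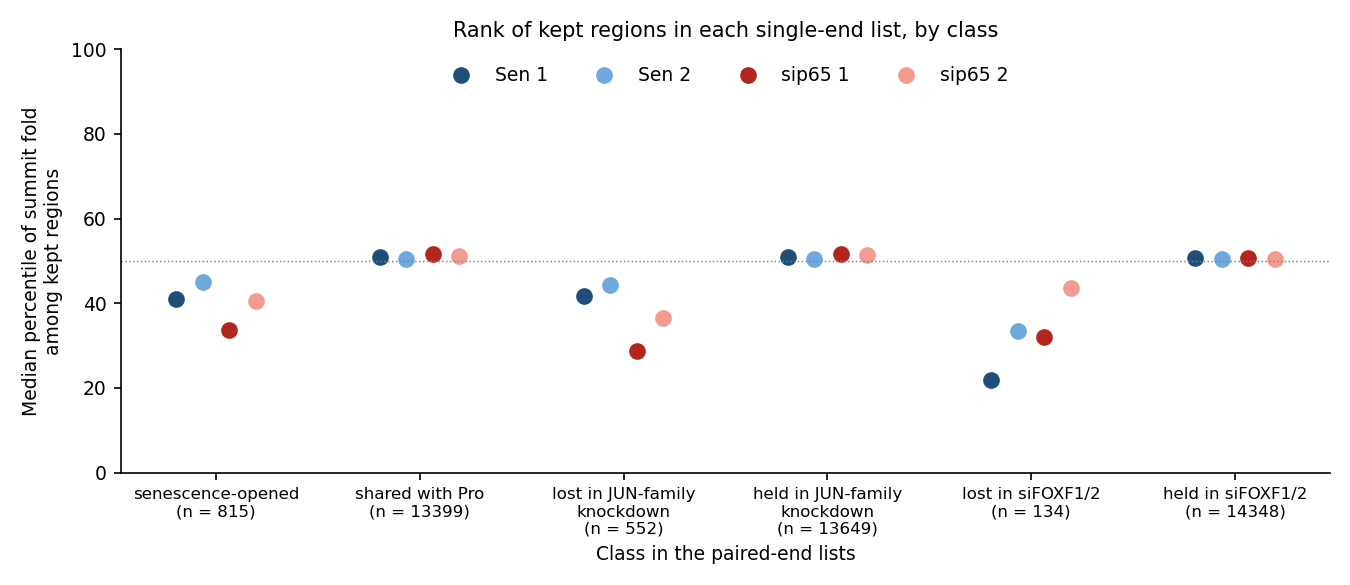
Median percentile of summit fold among kept regions (y axis) in each Sen and sip65 library, by class in the paired-end lists (x axis, with the number of regions). The JUN-lost class stood at 41.8 and 44.2 in Sen and 28.6 and 36.5 in sip65, while the larger classes lie near 50 in all 4 libraries.

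The classes differed in rank also among kept regions. The 552 JUN-lost kept regions had median percentiles of 41.8 and 44.2 in Sen and 28.6 and 36.5 in sip65, a difference of means of -10.5 where the SD between replicates was 4.14. Both sip65 ranks were below both Sen ranks in 28.8% of them and above in 15.0%, against 18.0% and 19.3% of all kept regions. The 815 senescence-opened regions stood at 40.9 and 45.0 in Sen and 33.6 and 40.5 in sip65, a difference of -5.86 with a replicate SD of 3.98. The 134 FOXF-lost regions stood at 21.9 and 33.5 against 32.0 and 43.6, a difference of 10.1 with a replicate SD of 8.21, and here Sen and sip65 overlapped. Regions shared with Pro differed by 0.658 and JUN-held ones by 0.710. A region had to be listed in all 4 libraries to enter, so these values leave out the regions that closed.

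The 2 knockdowns were compared directly at the 12318 regions present in all 6 single-end lists. limma called 0 regions lower (0%) and 0 higher (0%) after sip65 than after sip300/CBP at an adjusted p under 0.05, with a smallest adjusted p of 0.0534. At an unadjusted p under 0.05 limma gave 808 lower (6.56%) and 665 higher regions (5.40%). Both sip65 ranks lay below both sip300/CBP ranks in 2444 regions (19.8%) and above them in 2623 (21.3%). Without sip65 replicate 1 limma called 55 lower and 24 higher. The smallest p belonged to a region on chromosome 2 at 203359013 to 203359381, at percentiles of 99.2 and 97.8 after sip65 and 7.86 and 17.5 after sip300/CBP (difference in normal score 3.38, SE 0.60, limma, adjusted p = 0.0534). The leading region in the other direction was that of chromosome 6 from 110064996 to 110065231, at 5.64 and 8.44 after sip65 and 91.2 and 97.9 after sip300/CBP (-3.18, SE 0.61, with the same adjusted p). By class, the 436 senescence-opened regions had median percentiles of 32.3 and 39.9 after sip65, 46.5 and 48.0 after sip300/CBP, and 50.6 and 51.7 in Sen. For the 283 JUN-lost regions these were 27.0 and 35.7, 38.8 and 41.3, and 49.6 and 52.0. Both sip65 libraries lay below both sip300/CBP libraries in each of these classes, by -11.2 and -8.69 with replicate SDs of 3.88 and 4.53.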

How the data were processed

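Each library has its own deposited list in narrowPeak layout, so the authors did not pool replicates before calling peaks. Per peak they give the authors' fold enrichment ratio at the summit, −log10 of the p-value and q-value, and a score, which was not used. Bowtie2 2.3.4.1, SAMtools 1.9, deepTools 3.1.1, MACS2 2.1.1 and the build hg19 are named in the submitters' processing notes without role or order. How reads were shifted or peaks thresholded is not given in the sources used here. The libraries were read as 75 bp single ends or 35 bp pairs, per the labels' protocols. The lowest −log10 q in the single-end lists lay just above 4, per the deposited values.

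Presence was called at 1 bp overlap on chromosomes 1 to 22. A region's strength was the percentile of its highest fold within its list. Summit pileup and local background were recovered from fold and p-value, assuming the MACS2 Poisson model with a pseudocount of 1, for 100% of single-end peaks within 0.002 in −log10 p. Background coverage was the 1st percentile of these local backgrounds. Read totals were not used, and no count test was run.

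Ranks of fold among kept regions were turned into normal scores and tested with limma 3.58.1 (R 4.3.3, eBayes with a variance trend, Benjamini-Hochberg over all regions), after a check on simulated data. The simulated libraries differed only in scale, Poisson counting and planted changes, so the check does not cover any further spread between these libraries. Wilson intervals cover counting error over regions only. Named regions were the 8 strongest closed, the 8 strongest opened, the 8 kept regions of smallest p in each direction with both sip65 ranks beyond both Sen ranks, the 4 strongest kept and the 4 windows of 100 kb with most closed regions. The JUN-family and FOXF classes, the scaled heights and the equal-length shares over paired-end regions were added after seeing the data. The members and lists were chosen with earlier results of these data known. The planned gene lists and markers need an hg19 annotation, which was not used here.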

Additional observations from a re-analysis of the deposited data

Results flagged for a closer look

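Chromosome X was left out of all comparisons. It held 1 region with a peak in both sip65 lists and in no single-end Sen list, which was in all 4 paired-end Sen lists. Of its 656 regions in both Sen lists, 253 (38.6%) closed and 124 (18.9%) were kept.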

How the results depend on the processing

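Requiring a −log10 q of at least 20 left 1276 closed, 0 opened and 79 kept regions. Lists of equal length gave 2153, 1876 and 6087, and closed shares of 50.7% for senescence-opened regions, 12.1% for those shared with Pro, 40.2% for FOXF-lost regions and 30.5% for the weakest bin. Peaks covering 50% of a region left 8989 kept. Closed regions whose scaled height reached the lower quartile of listed pileups numbered 2644 by background coverage and 2322 by kept regions. Classes from paired-end Sen replicates 1 and 2 alone gave 56.3% for senescence-opened, 55.1% for FOXF-lost and 61.6% for JUN-lost regions. Leaving out 1 replicate at a time moved closed regions to 13913 to 29272, opened to 369 to 4890 and kept to 14994 to 30902. Without sip65 replicate 1 closed shares were 84.7% for senescence-opened, 55.3% for shared, 81.7% for FOXF-lost and 89.3% for JUN-lost regions, with 87.0% in the weakest and 23.6% in the strongest bin. Without sip65 replicate 2 they were 55.0%, 18.2%, 51.7% and 60.5%, with 50.9% and 5.35%. JUN-lost regions had the highest closed share, then senescence-opened, then shared ones, with equal length, a −log10 q of at least 5, classes from either pair of paired-end Sen replicates, and either sip65 replicate left out. Class shares were not computed under the other settings. Opened regions were in all paired-end Sen lists at 95.1% with equal length, 88.1% without Sen replicate 2 and 67.3% without sip65 replicate 2.

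In the limma test of ranks, regions that fell numbered 6 among the 50% of regions with the higher mean rank, 0 with the mean over peaks, 0 without the variance trend and 0 to 208 with 1 replicate left out, where the group left with 1 library is assumed to vary like the other. Regions that rose numbered 1 among those and 0 to 91. Against sip300/CBP the higher-ranked 50% gave 4 lower and 8 higher regions, and leaving out 1 replicate 0 to 55 and 0 to 24. The largest of these counts came without sip65 replicate 1. With the replicate number as a block, 10 regions fell and 2 rose against Sen, and 3 were lower and 4 higher than after sip300/CBP. The labels do not say that a number marks a shared culture or day, and the deviations of same-numbered Sen and sip65 libraries correlated at -0.03 over 14895 kept regions, so the numbers are not taken to pair the samples. Of 59 alternative values for named kept regions 40 stayed on the same side of the threshold in the same direction, 15 passed it, 4 no longer did and 0 changed direction. The short list of sip65 replicate 2 limits what can be read as lost. Whether depth made that list short was not tested.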
